A study of Rattus norvegicus with 9 samples.

Results

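Tumour necrosis factor (TNF), its receptors and the proteins that carry the signal inward were followed in RNA sequencing of rat synovium, the lining tissue of the joint. The genes were the 10 rows of the deposited gene table, out of 32883, whose symbol was Tnf, Tnfrsf1a, Tnfrsf1b, Traf1, Traf2, Ripk1, Ripk3, Birc3, Ltb or Ltbr, taken by name. The study concerns rheumatoid arthritis and a liquid extract named in its title. It holds 9 libraries from Lewis rats, 3 with the treatment label TZG, 3 with AIA and 3 with NC, which are read here as the extract group, the arthritis model and the control. The labels used here spell out none of these letters and give no dose, time, age, sex or way of inducing arthritis, nor whether TZG rats had arthritis. Separate animals are not stated for the libraries of a group, and p-values here measure no more than library-to-library spread, which may be of technical origin.

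TNF is made mainly by macrophages and T cells and is a target of established drugs for rheumatoid arthritis. It binds TNFR1 (Tnfrsf1a), found on most cells, and TNFR2 (Tnfrsf1b), found mainly on leukocytes and endothelium. TNFR1 gathers the kinase RIPK1 (Ripk1), the adaptor TRAF2 (Traf2) and the ubiquitin ligase cIAP2 (Birc3), and from this complex the cell turns on NF-kB or, where that is blocked, dies by apoptosis or, through RIPK3 (Ripk3), by necroptosis. Lymphotoxin beta (Ltb) is a membrane-bound relative of TNF on lymphocytes, whose receptor (Ltbr) lies on stromal and myeloid cells and drives the building of lymphoid tissue.

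The libraries held 12536231 to 16402126 reads, where 3 reads correspond to 0.183 to 0.239 CPM (counts scaled to the size of the library). Several stood apart in tissue content. Summed markers of skeletal muscle reached 28199 CPM in NC library C61 and 1460 in C59, against 13.8 to 53.2 in TZG and 13.9 to 40.5 in AIA libraries. Cartilage markers summed to 6485 CPM in TZG library G48 and erythroid markers to 753 CPM in AIA library M8, above the sums in the other libraries. The synovial markers Prg4, Cd55 and Pdpn had reads in all 9 libraries, and Prg4 ran from 1197 CPM in G48 to 7303 in C56. The 7 synovial fibroblast markers summed to 3502 to 4840 CPM in TZG, 4186 to 8700 in AIA and 2123 to 10034 in NC. The lowest sum was that of C61. Of these 7 markers 1 had a higher mean in AIA than in NC, and 3 had a higher mean in TZG than in NC. Libraries M2, M8, G31 and G48 were placed in their groups by the letter of their column, since their numbers are in no sample title of the group. The edgeR fits and the ratio of the TNF receptors were also computed without C61, M8 and G48.

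Among the 10 genes the receptors were the most abundant and the ligands the least. On the scale of FPKM (fragments scaled for gene length and depth), which allows for gene length, Tnfrsf1a had a median of 127 FPKM over the 9 libraries and lay between 107 and 152. Ltbr followed at a median of 72.3 (62.1 to 82.9) and Tnfrsf1b at 26.4 FPKM (11.1 to 40.2). The ranges of Tnfrsf1a and Ltbr did not overlap, nor did those of Ltbr and Tnfrsf1b. Below them came Ripk1 at a median of 13.7, Traf2 at 13.5, Ripk3 at 8.6, Birc3 at 5.74, Traf1 at 4.17, Ltb at 1.61 and Tnf at 0.413 FPKM, and from Tnfrsf1b downward the range of each gene overlapped that of the next.

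**Figure D1:**
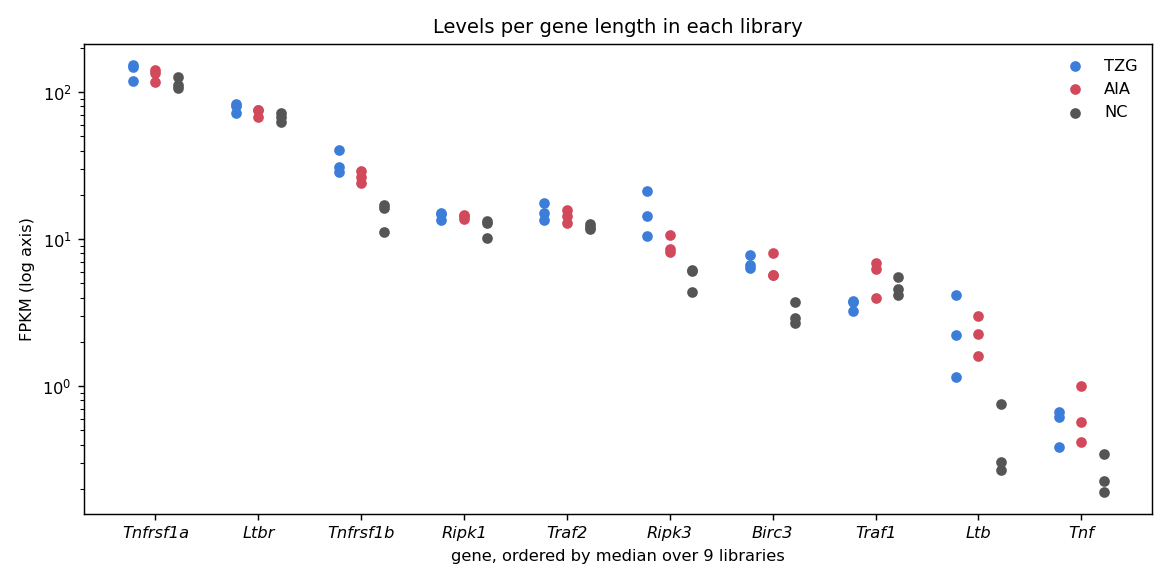
FPKM (log axis) of the 10 genes in each library, with TZG, AIA and NC side by side and genes ordered by their median. The points of Tnfrsf1a lie above 100 FPKM and those of Tnf below 1 FPKM in every library, and the groups spread apart most for Ltb.

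Tnf was close to the limit of detection. The 3 TZG libraries held 16, 9 and 17 reads of Tnf, the AIA libraries 13, 24 and 10, and the NC libraries 6, 9 and 4. In CPM scaled with TMM factors, the unit of all levels from here on unless FPKM is named, these were 1.07, 0.623 and 1.09 in TZG, 0.953, 1.63 and 0.689 in AIA and 0.381, 0.593 and 0.353 in NC. Each TZG and AIA library lay above the NC libraries, by as little as 0.623 against 0.593 CPM, and TZG and AIA overlapped. No comparison passed in edgeR's quasi-likelihood test over all genes: the log2 fold change was 1.28 ± 0.48 SE in AIA against NC (adjusted p = 0.25), 1.04 ± 0.48 in TZG against NC (adjusted p = 0.19) and -0.23 ± 0.45 in TZG against AIA (adjusted p = 0.85). The last of these was 0.17 without M6.

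Ltb had the widest spread between groups of the 10 genes. It stood at 4.4, 2.28 and 9.13 CPM in TZG libraries G30, G31 and G48, at 3.3, 4.55 and 6.13 in AIA libraries M2, M6 and M8, and at 0.634, 1.58 and 0.617 in NC libraries C56, C59 and C61. Each TZG and AIA library lay above the NC libraries, while TZG and AIA overlapped. Ltb rose in TZG against NC, at 5.27 ± 3.51 CPM in TZG and 0.944 ± 0.551 in NC (SD, n = 3 each; log2 fold change 2.46 ± 0.59 SE, edgeR adjusted p = 0.036). This call was the least firm: it held in 3 of 9 fits with 1 library left out and was lost without C56, C61, G30, G48, M2 or M6, where the adjusted p reached 0.11, and the log2 fold change fell to 1.6 without C61, M8 and G48 (adjusted p = 0.086). In AIA against NC the value was 2.28 ± 0.59 (adjusted p = 0.13) and in TZG against AIA 0.18 ± 0.53 (adjusted p = 0.92), which turned to -0.47 without G48 and -0.22 without C61, M8 and G48. In the deposited table Ltb (chromosome 20, 4861335 to 4863198) lies beside Tnf (4855829 to 4858447), within the major histocompatibility region, and both with Lta (4852496 to 4854677), which had too few reads to be tested. The genome build of these positions is not given in the sources used here.

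The 250 bases upstream of the annotated start were read from a table of RefSeq promoters, build GRCr8, for 9 of the 10 genes, and Birc3 was not analysed here. Those of Ltb, Tnfrsf1b and Ripk3, which rose in TZG against NC, and of Tnf are shown, since NF-kB, the factor downstream of these receptors, is known to act on several of these genes. Capitals mark a match on either strand to the consensus kappa B motif of NF-kB, GGGRNNYYCC, where R is A or G, Y is C or T and N is any base.
Ltb promoter (chr20:3634055-3634304, reverse strand): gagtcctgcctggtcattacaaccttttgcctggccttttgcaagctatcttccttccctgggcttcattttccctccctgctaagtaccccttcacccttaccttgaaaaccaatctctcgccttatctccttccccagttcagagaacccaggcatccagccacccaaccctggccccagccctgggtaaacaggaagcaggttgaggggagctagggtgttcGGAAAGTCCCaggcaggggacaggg
Tnfrsf1b promoter (chr5:162387412-162387661, reverse strand): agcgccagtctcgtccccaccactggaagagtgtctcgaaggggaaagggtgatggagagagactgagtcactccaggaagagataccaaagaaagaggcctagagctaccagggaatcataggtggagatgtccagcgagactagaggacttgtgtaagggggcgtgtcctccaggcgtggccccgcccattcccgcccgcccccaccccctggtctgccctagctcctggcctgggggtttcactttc
Ripk3 promoter (chr15:33262026-33262275, reverse strand): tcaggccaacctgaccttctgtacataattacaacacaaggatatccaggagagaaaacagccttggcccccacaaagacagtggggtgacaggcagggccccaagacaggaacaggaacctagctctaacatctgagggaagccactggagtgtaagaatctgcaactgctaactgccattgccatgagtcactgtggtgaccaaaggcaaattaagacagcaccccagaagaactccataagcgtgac
Tnf promoter (chr20:3626435-3626684, forward strand): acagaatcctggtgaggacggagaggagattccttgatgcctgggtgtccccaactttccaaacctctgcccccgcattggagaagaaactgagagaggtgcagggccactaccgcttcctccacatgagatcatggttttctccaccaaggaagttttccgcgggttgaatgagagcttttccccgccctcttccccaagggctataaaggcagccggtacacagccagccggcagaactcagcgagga
The motif was found in 1 of the 9 windows, that of Ltb, on the strand opposite to the gene and beginning 25 bases before the start, and in 6.33% of all 33469 such windows. TATAAA, searched on both strands, was also in 1 of the 9, that of Tnf, and in 12.9% of all. A match in these letters is a description and not a binding site.

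Of the 3 receptors Tnfrsf1b passed the test in TZG against NC, and Tnfrsf1a and Ltbr did not. Tnfrsf1b, which encodes TNFR2 (chromosome 5, 163136390 to 163167299), stood at 111, 85.7 and 86.6 CPM in TZG, at 68.7, 81.3 and 75.5 in AIA and at 46.8, 49.6 and 35.6 in NC. The 3 groups did not overlap, with TZG highest and NC lowest. In FPKM, which carries no TMM factor, TZG and AIA overlapped, with 28.6 in TZG library G48 and 29 in AIA library M6. It rose in TZG against NC (94.3 ± 14.2 CPM in TZG, 44 ± 7.38 in NC, SD, n = 3 each; 2.14-fold, log2 fold change 1.1 ± 0.16 SE, edgeR adjusted p = 0.014). This call held in each of the 9 fits with 1 library left out, with log2 fold changes from 0.98 to 1.19, and without C61, M8 and G48, at 1.03 (adjusted p = 0.013). In AIA against NC it was 0.77 ± 0.16 (adjusted p = 0.099) and in TZG against AIA 0.33 ± 0.16 (adjusted p = 0.42).

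Tnfrsf1a, which encodes TNFR1 (chromosome 4, 157864969 to 157877633), stood at 302, 309 and 266 CPM in TZG, at 296, 280 and 246 in AIA and at 273, 231 and 263 in NC. Ltbr, nearby on the same chromosome (157822840 to 157829241), stood at 160, 164 and 156 CPM in TZG, at 154, 153 and 138 in AIA and at 150, 131 and 155 in NC. Groups overlapped for Tnfrsf1a in each comparison and for Ltbr in AIA against NC, while each TZG library lay above the AIA and NC libraries for Ltbr, by as little as 156 against 155 CPM. The log2 fold changes of TZG against NC were 0.19 ± 0.13 SE for Tnfrsf1a (edgeR adjusted p = 0.36) and 0.14 ± 0.11 for Ltbr (adjusted p = 0.43). Those of AIA against NC were 0.1 ± 0.13 (adjusted p = 0.78) and 0.03 ± 0.11 (adjusted p = 0.92). The Ltbr value of AIA against NC was -0.04 without C59. In TZG against AIA they were 0.09 ± 0.13 for Tnfrsf1a (adjusted p = 0.79) and 0.11 ± 0.11 for Ltbr (adjusted p = 0.69).

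The share of TNFR2 to TNFR1 transcripts within a library does not depend on how libraries are scaled. In FPKM, Tnfrsf1b was 0.271, 0.205 and 0.24 of Tnfrsf1a in TZG, 0.171, 0.214 and 0.226 in AIA, and 0.127, 0.159 and 0.0999 in NC. Both TZG and AIA lay above NC in every library, and TZG and AIA overlapped. The log2 ratio was higher by 0.91 in TZG than in NC and by 0.68 in AIA than in NC, each with p = 0.1 in a two-sided exact permutation test, the smallest p that 3 against 3 libraries can give, and by 0.23 in TZG than in AIA (p = 0.3). Adjusted over the 3 comparisons, the exact permutation p of TZG against NC and of AIA against NC was 0.15. Without C61, M8 and G48 the differences were 0.73 in TZG against NC and 0.43 in AIA against NC.

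**Figure D2:**
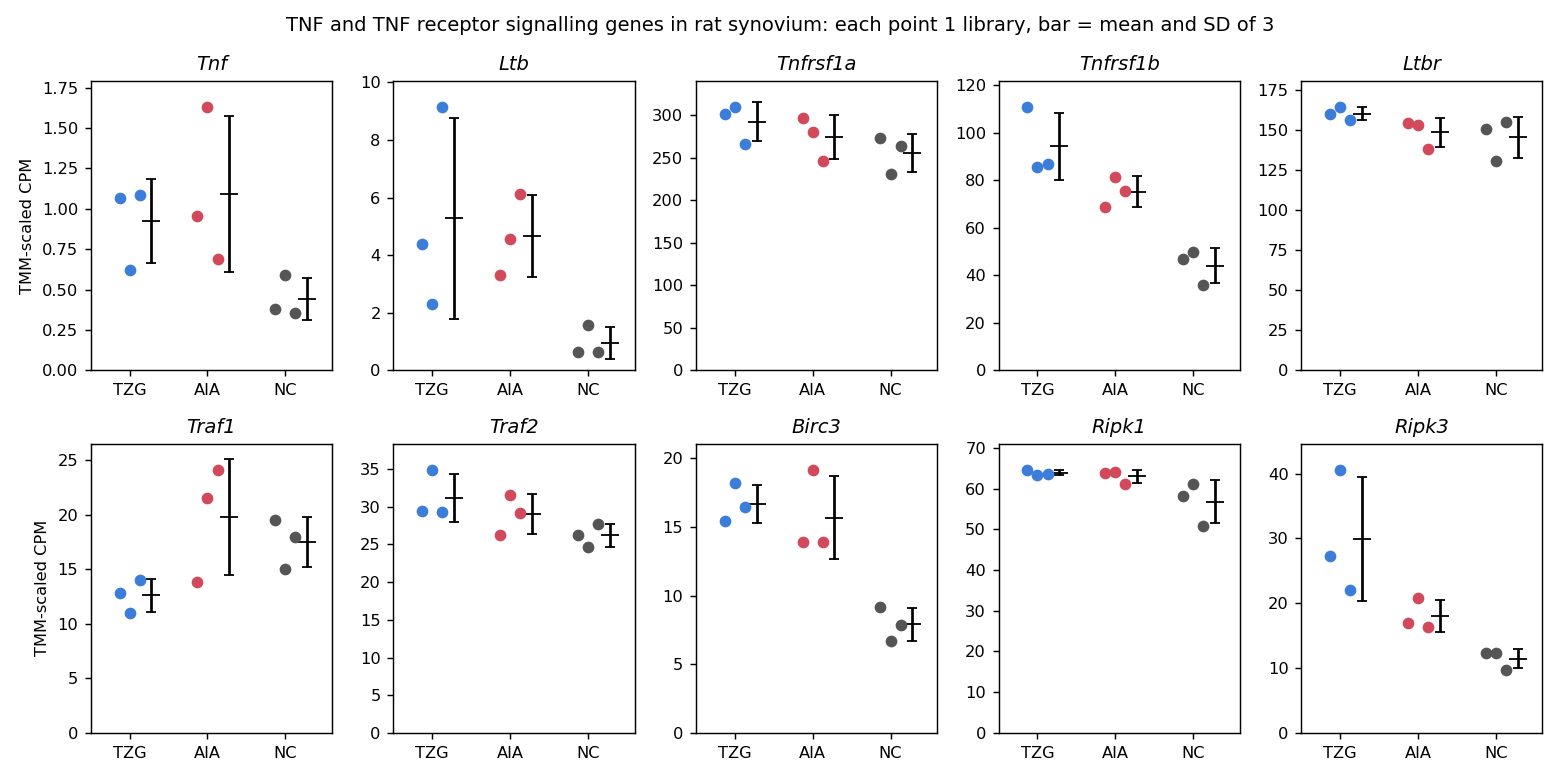
TMM-scaled CPM of each gene in the 3 libraries of TZG, AIA and NC, with points for libraries and bars for mean and SD. Tnfrsf1b, Birc3, Ripk3, Ltb and Tnf lie higher in every TZG and AIA library than in the NC libraries, while Traf1 lies lower in the TZG than in the NC libraries.

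Of the 3 adaptor and ligase genes, Birc3 rose and Traf1 and Traf2 did not pass. Birc3 encodes cIAP2, which tags RIPK1 with ubiquitin and is itself switched on by NF-kB (chromosome 8, 6048969 to 6076598). It stood at 15.5, 18.2 and 16.4 CPM in TZG, at 13.9, 19.1 and 13.9 in AIA and at 9.13, 6.72 and 7.85 in NC. TZG and AIA overlapped and both lay above NC. The rise in TZG against NC was 2.11-fold, at 16.7 ± 1.39 CPM in TZG and 7.9 ± 1.21 in NC (SD, n = 3 each; log2 fold change 1.08 ± 0.19 SE, edgeR adjusted p = 0.016). It held in each of the 9 fits with 1 library left out, with adjusted p up to 0.0497, and without C61, M8 and G48 (1.09, adjusted p = 0.027). In AIA against NC the value was 0.99 ± 0.19 (adjusted p = 0.094) and in TZG against AIA 0.09 ± 0.18 (adjusted p = 0.86). Its close relative Birc2, which encodes cIAP1, stood at 40.9 ± 2.68 CPM in TZG, 41.5 ± 4.64 in AIA and 47.8 ± 6.3 in NC (TZG against NC, log2 fold change -0.22 ± 0.13, adjusted p = 0.3).

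Traf1 encodes the one TRAF protein without a RING domain and binds TNFR2 with TRAF2 (chromosome 3, 14003340 to 14022672). It was 12.9, 11 and 14 CPM in TZG, 13.9, 21.5 and 24.1 in AIA and 19.5, 15 and 18 in NC. Alone among the 10 genes it was lower in each TZG library than in the NC libraries, and AIA library M2 lay within the TZG range in CPM, though above it in FPKM (3.25 to 3.81 in TZG, 3.95 in M2). The log2 fold change was -0.65 ± 0.22 SE in TZG against AIA (edgeR adjusted p = 0.32), -0.47 ± 0.22 in TZG against NC (adjusted p = 0.19) and 0.18 ± 0.22 in AIA against NC (adjusted p = 0.76). With 1 library left out the first ran from -0.85 to -0.49 and the second from -0.57 to -0.37.

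Traf2, the adaptor that brings cIAP proteins to both TNF receptors (chromosome 3, 2746075 to 2770620), stood at 29.5, 34.9 and 29.3 CPM in TZG, at 26.2, 31.6 and 29.2 in AIA and at 26.3, 24.7 and 27.7 in NC. Each TZG library lay above the NC libraries and AIA overlapped with both. Its log2 fold changes were 0.25 ± 0.12 SE in TZG against NC (edgeR adjusted p = 0.21), 0.15 ± 0.12 in AIA against NC (adjusted p = 0.64) and 0.11 ± 0.12 in TZG against AIA (adjusted p = 0.73).

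The kinase Ripk3, the trigger of necroptosis, rose and its partner Ripk1 did not pass. Ripk3 (chromosome 15, 34470796 to 34479741) stood at 27.3, 40.6 and 22 CPM in TZG, at 17, 20.8 and 16.3 in AIA and at 12.4, 12.3 and 9.7 in NC. As for Tnfrsf1b, the 3 groups did not overlap, with TZG highest, G31 above all, and NC lowest. In FPKM TZG and AIA overlapped here too, with 10.5 in TZG library G48 and 10.7 in AIA library M6. The rise in TZG against NC was 2.61-fold (29.95 ± 9.55 CPM in TZG, 11.5 ± 1.52 in NC, SD, n = 3 each; log2 fold change 1.38 ± 0.23 SE, edgeR adjusted p = 0.015). It held in 8 of 9 fits with 1 library left out, was at an adjusted p of 0.051 without C56, and was 1.46 without C61, M8 and G48 (adjusted p = 0.012). In TZG against AIA it was 0.73 ± 0.23 (adjusted p = 0.31; 0.47 to 0.92 with 1 library left out) and in AIA against NC 0.65 ± 0.23 (adjusted p = 0.23).

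Ripk1, which holds the survival and death branches together (chromosome 17, 31537591 to 31569904), was 64.6, 63.5 and 63.7 CPM in TZG, 63.9, 64 and 61.1 in AIA and 58.2, 61.2 and 50.9 in NC. Each TZG library lay above the NC libraries, AIA overlapped with both, and the lowest value was that of the muscle-rich library C61. C61 also held the lowest CPM of Tnf, Ltb, Tnfrsf1b and Ripk3. The log2 fold change was 0.17 ± 0.1 SE in TZG against NC (edgeR adjusted p = 0.28), 0.15 ± 0.1 in AIA against NC (adjusted p = 0.52) and 0.02 ± 0.1 in TZG against AIA (adjusted p = 0.95). Mlkl, the executor that RIPK3 phosphorylates, stood at 24.6 ± 1.85 CPM in TZG, 25.9 ± 2.88 in AIA and 26.1 ± 4.85 in NC (SD, n = 3 each; log2 fold change of TZG against NC -0.09 ± 0.16, adjusted p = 0.75).

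AIA was set against NC to see the effect of the arthritis model. In AIA the 10 genes had positive log2 fold changes, with a median of 0.41 against -0.01 over all 15068 genes tested, where 48.9% were positive. Tnf, Ltb, Tnfrsf1b, Birc3 and Ripk3 were higher in each AIA library than in the NC libraries, as were 11.2% of all genes in CPM. In FPKM Traf2 and Ripk1 were too, though both overlapped in CPM, and the share of all genes in FPKM was not computed. None of the 10 passed in edgeR at an adjusted p of 0.05, where 0.0133% of all genes did, and 5, each of them higher, had an unadjusted p under 0.05, as did 15.0% of all genes and 8.26% in that direction. DESeq2 called 3 of the 10, Ltb, Tnfrsf1b and Birc3, among 6.24% of all genes, and limma-voom called 0, among 0.00664% of all. The authors' deposited table lists Ltb at q = 0.00218, Tnfrsf1b at q = 0.0488 and Birc3 at q = 0.0639, where 4.32% of its genes had q under 0.05.

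TZG was set against AIA to see where the extract group and the model part. Of the 10 genes, Ripk3 had the largest positive value and Traf1 the largest negative one. None passed in edgeR, where 0.0% of all genes passed, nor in limma-voom, nor in DESeq2, where 2.02% did and Tnf had no adjusted p. Ripk3 and Traf1 had an unadjusted p under 0.05 in edgeR, as had 12.6% of all genes, 6.2% higher and 6.37% lower. Of the 10 values 8 were positive, as were 50.2% of all, and their median was 0.1 against 0 over all genes. The authors' deposited table lists Ripk3 at q = 0.269 and Traf1 at q = 0.506, where 0.578% of its genes had q under 0.05. Ripk3, Tnfrsf1b and Ltbr were higher in TMM-scaled CPM, though not in FPKM, in each TZG library than in the AIA libraries, as were 10.7% of all genes. A missed threshold does not show that the genes stood alike, least of all for Tnf and Ltb, whose SEs were 0.45 and 0.53.

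The comparison of TZG with NC sets the extract group against the control. Ltb, Ripk3, Tnfrsf1b and Birc3 rose, 4 of 10 at an adjusted p under 0.05 in edgeR, where 5.79% of all genes rose and 10.3% were called in either direction. The median log2 fold change of the 10 was 0.65 against -0.02 over all genes, 9 of 10 were positive against 48.3% of all, and 4 had an unadjusted p under 0.05 against 29.1% of all. In 8 of 10 each TZG library lay above the NC libraries in TMM-scaled CPM, as in 17.4% of all genes, and in Traf1 below. In CPM 32.6% of all genes did not overlap in one direction or the other. In FPKM Ltbr overlapped, and the share of all genes in FPKM was not computed. DESeq2 called the same 4 (19.6% of all genes) and limma-voom 3 of them, without Ltb (7.83%). In the authors' deposited table Ripk3 has q = 0.00112, Ltb 0.00422, Tnfrsf1b 0.00505 and Birc3 0.0285, and 8.54% of its genes have q under 0.05. Without C56 edgeR called 2 of the 10 (2.18% of all genes), without C61, M8 and G48 it called 3 (14.4%), and with the 5 libraries matched to samples by number, 1 each in TZG and AIA, it called 0 (0.0%). The 3 comparisons share their groups and are not independent of each other.

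**Figure D3:**
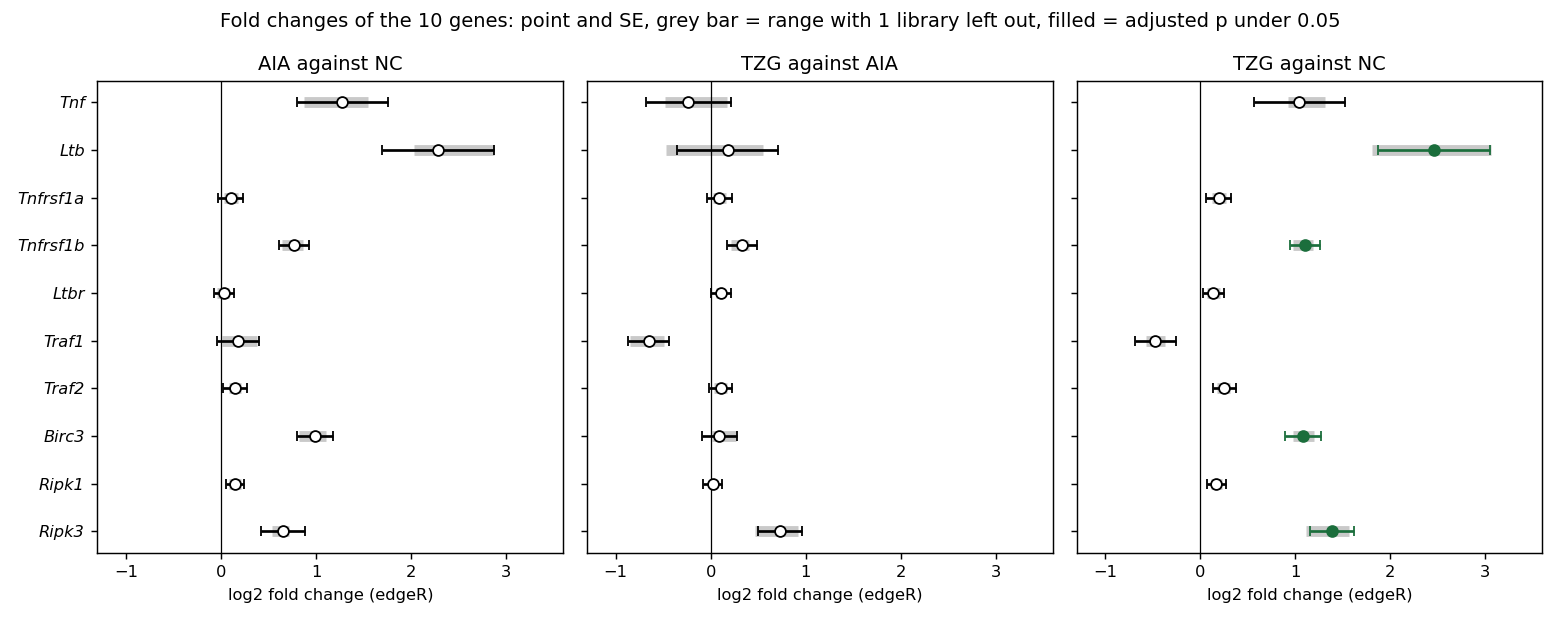
Log2 fold changes of the 10 genes from edgeR in each comparison, with SE as the thin bar, the range with 1 library left out as the grey bar and filled points for an adjusted p under 0.05. The 4 filled points are Ltb, Tnfrsf1b, Birc3 and Ripk3 in TZG against NC.

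Markers of some other cells moved with the same groups. In bulk tissue, more cells of a type and more RNA per cell cannot be told apart. Of 10 neutrophil markers 10 had a higher mean in AIA and 9 in TZG than in NC, and they summed to 471 to 3502 CPM in TZG, 394 to 3297 in AIA and 46.1 to 119 in NC. The marker by which these counts differ, Ltf, had 1 read in M8 and 0 in the other libraries. The receptor Csf3r was at 32.9 to 81.1 CPM in TZG, 17.8 to 72.2 in AIA and 1.33 to 2.21 in NC. For Tnfrsf1b, Birc3 and Ripk3 the libraries with most neutrophil transcripts, G48 and M8, were not the highest of their groups. Ltb was highest in both, and so in CPM was Traf1, at 14 in G48 and 24.1 in M8. Traf1 was nonetheless lower in each TZG library than in the NC libraries. Tnf was highest in G48 within TZG and lowest in M8 within AIA. The part of these cells in the results was not tested. The 9 macrophage and monocyte markers found in the table summed to 3733 to 4915 CPM in TZG, 2232 to 3844 in AIA and 528 to 2406 in NC, with the lowest sum in C61. Most of each sum was Lyz2. Csf1r overlapped between all groups, at 314 to 385 CPM in TZG, 223 to 335 in AIA and 74.5 to 366 in NC. Marco had no read in any library, and 8 of the 9 had a higher mean in both AIA and TZG than in NC.

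In CPM both Ltb and Traf1 were highest in G48 within TZG and in M8 within AIA. These were also the libraries of their groups richest in B cell transcripts, as in neutrophil ones. The 7 B and plasma cell markers in the table summed to 12.9 to 105 CPM in TZG, 9.31 to 85.6 in AIA and 1.78 to 2.82 in NC, and 7 of 7 had a higher mean in both AIA and TZG than in NC. The T and NK cell list overlapped between all groups in its sum, at 112 to 209 CPM in TZG, 130 to 198 in AIA and 42.3 to 201 in NC, most of it Cd4, which rat macrophages also express. Of its 10 markers 9, all but Cd4, had a higher mean in both AIA and TZG than in NC. Cd3e, the defining T cell gene, was at 2.15 to 4.47 CPM in TZG, 2.21 to 5.5 in AIA and 0.461 to 0.698 in NC, highest in G48 within TZG and lowest in M8 within AIA. Whether the number of lymphocytes accounts for Ltb was not tested.

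Lists of other tissue cells differed in TZG as well, in each library for endothelium and mainly in group means for the others. The 5 endothelial markers in the table summed to 1055 to 1234 CPM in TZG, 1482 to 1668 in AIA and 1298 to 1801 in NC, lower in each TZG library than in the others. Of 6 adipocyte markers 6 had a lower mean in TZG than in AIA and in NC, with sums of 927 to 4462 CPM in TZG, 5075 to 7002 in AIA and 2551 to 9057 in NC. The sums of G30 and G31, 4462 and 4325 CPM, lay within the NC range, and that of G48 was 927. Of 8 cartilage markers 8 had a higher mean in TZG than in AIA and in NC, with sums of 86.6 to 6485 CPM in TZG, 6.89 to 146 in AIA and 4.15 to 11.9 in NC. The highest was that of G48, against 489 CPM in G30 and 86.6 in G31, where Col2a1 was at 1.04 CPM and Col9a1 had 0 reads. Their part in the values of the 10 genes was not tested.

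**Figure D4:**
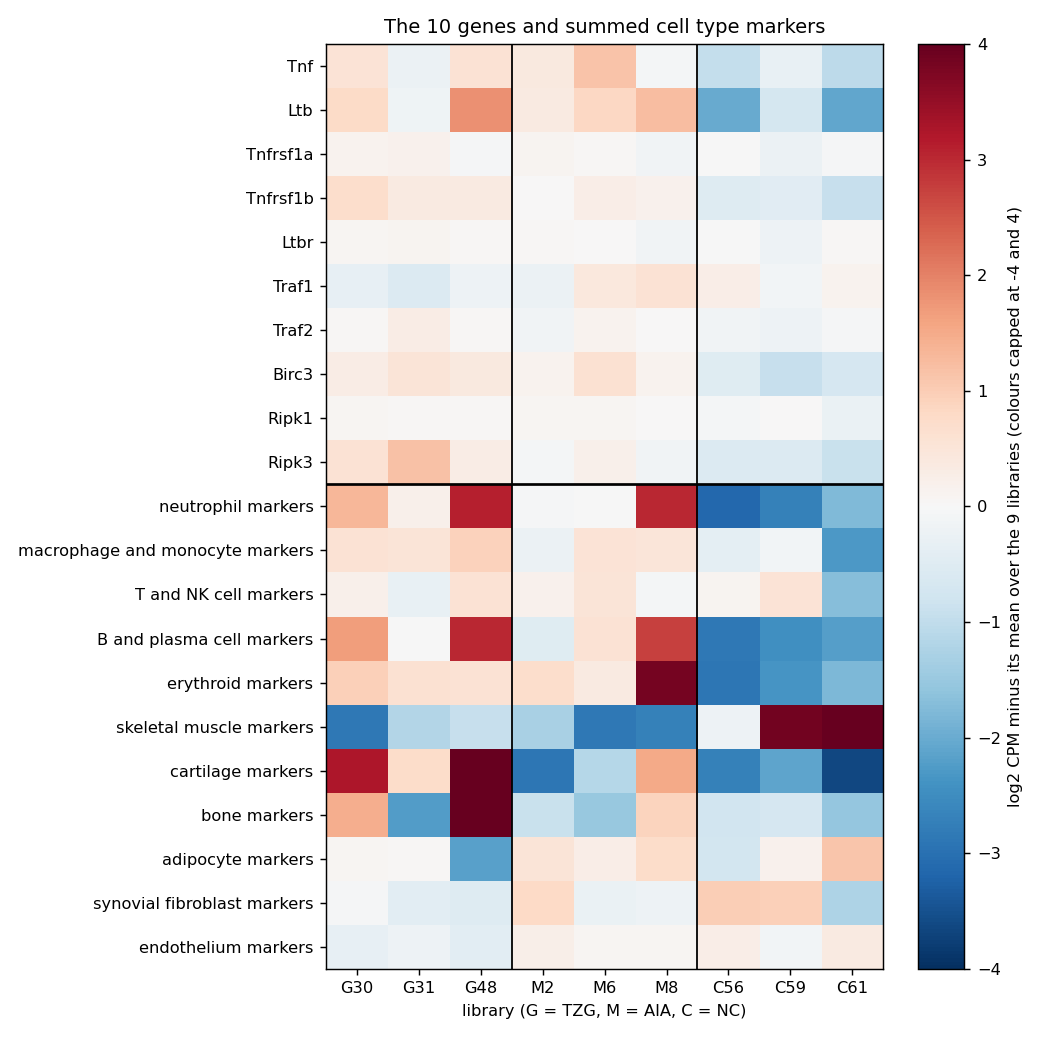
Log2 CPM of the 10 genes and of summed cell type markers in each library, as the difference from the mean over the 9 libraries. Neutrophil, B cell and erythroid markers are low in the NC libraries, as are Ltb, Tnfrsf1b and Birc3, while muscle is high in C61 and C59 and cartilage in G48.

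Other genes of the pathway were read from 5 lists of 101 names, of which 100 were in the table and 89 had enough reads to be tested. In TZG against NC 14 of the 89 rose and 3 fell in edgeR, beside 10.3% of all genes, and 21 were called without C61, M8 and G48. With 1 library left out 6 to 19 were called, with 6 without C56, 9 without G31, 10 without G30 and 11 without C59 or C61. In AIA against NC and TZG against AIA none of the 89 passed in edgeR, while DESeq2 called 10 of them (6.24% of all genes) and 8 (2.02%) and limma-voom 0 and 0. At an unadjusted p under 0.05 there were 26 in AIA against NC, beside 15.0% of all genes, and 17 in TZG against AIA, beside 12.6%.

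Of the other ligands 2 of 11 tested fell and none rose in TZG against NC, where 4.53% of all genes fell and 5.79% rose, with a list median of 0.22. TRAIL (Tnfsf10), a death ligand, stood at 85.4, 72.4 and 46.6 CPM in TZG and 178, 147 and 219.5 in NC (log2 fold change -1.41 ± 0.24 SE, edgeR adjusted p = 0.016). TWEAK (Tnfsf12) was at 82.4 ± 9.79 CPM in TZG and 133 ± 6.87 in NC (-0.69 ± 0.11, adjusted p = 0.014). LIGHT (Tnfsf14), the other known ligand of the lymphotoxin beta receptor, stood at 1.91 ± 1.6 CPM in TZG, 1.59 ± 1.43 in AIA and 0.135 ± 0.164 in NC and did not pass (adjusted p = 0.067 in TZG against NC).

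Of the other receptors 2 of 17 tested rose in TZG against NC, beside 5.79% of all genes, and none fell, with a list median of 0.59. Relt, an orphan receptor, stood at 12.7, 11.3 and 10.5 CPM in TZG and 5.14, 3.69 and 4.85 in NC (log2 fold change 1.33 ± 0.22 SE, edgeR adjusted p = 0.015). HVEM (Tnfrsf14), a receptor of LIGHT, was at 4.53, 2.7 and 6.84 CPM in TZG, 2.49, 9.71 and 11.4 in AIA and 0.254, 0.329 and 0 in NC (4.44 ± 0.84 in TZG against NC, adjusted p = 0.02). The lowest p in TZG against AIA belonged to the TWEAK receptor Tnfrsf12a, at 35.9 ± 9.02 CPM in TZG and 15.6 ± 7.17 in AIA (1.2 ± 0.35, adjusted p = 0.31).

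In the list of receptor complex, ubiquitin and death genes 1 of 29 rose in TZG against NC, beside 5.79% of all genes, with a list median of 0.05. This was Traf3, a brake on the lymphotoxin beta receptor's branch of NF-kB signalling, at 34.9 ± 1.21 CPM in TZG, 24.4 ± 2.9 in AIA and 24.7 ± 2.87 in NC. Its log2 fold change of TZG against NC was 0.5 ± 0.13 SE (edgeR adjusted p = 0.046). The adaptor Tradd was at 26.5 ± 2.33 CPM in TZG and 25.6 ± 2.28 in NC (adjusted p = 0.81), the protease Casp8 at 16.9 ± 5.07 CPM in TZG and 13.6 ± 3.03 in NC (adjusted p = 0.46).

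Of 23 tested genes that TNF is known to induce, 9 rose in TZG against NC, beside 5.79% of all genes, and none fell, with a list median of 0.82. Superoxide dismutase Sod2 stood at 560, 427 and 338 CPM in TZG and 118, 131 and 135 in NC (log2 fold change 1.79 ± 0.24 SE, edgeR adjusted p = 0.013). The hyaluronan-binding Tnfaip6 was at 50.9 ± 14.5 CPM in TZG and 8.22 ± 3.51 in NC (2.62 ± 0.59, adjusted p = 0.031). The chemokine Ccl20 had 277 reads in TZG and 0 in NC. Pooled over the TZG libraries it was at least 86.6-fold higher, against a limit of 3 reads over the NC group. It was uneven within TZG, at 12 CPM in G30, 3.74 in G31 and 2.75 in G48 (TZG against NC, edgeR adjusted p = 0.047). The others were Ccl2, Cxcl1, Il6, Ptgs2, Bcl2a1 and Nfkb2, while the feedback inhibitors Tnfaip3 and Nfkbia did not pass (0.67 ± 0.21, adjusted p = 0.069, and -0.09 ± 0.27, adjusted p = 0.85). In AIA against NC the list had 20 of 23 positive values, where 48.9% of all genes were positive, with a median of 0.73, and none passed. In TZG against AIA 17 of 23 were positive, beside 50.2% of all genes, with a median of 0.17, and none passed in edgeR. Il6 averaged 8.49 ± 2.63 CPM in TZG, 0.77 ± 0.697 in AIA and 0.45 ± 0.418 in NC (SD, n = 3 each). Bcl2a1 averaged 13.2 ± 2.73 CPM in TZG, 12.5 ± 8.01 in AIA and 3.69 ± 0.802 in NC.

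Of 9 genes of TNF shedding and mRNA control, 2 rose and 1 fell in TZG against NC, where 5.79% of all genes rose and 4.53% fell, with a list median of -0.08. Timp3, which inhibits the TNF-shedding protease ADAM17, stood at 239, 183 and 148 CPM in TZG, 421, 254 and 307 in AIA and 567, 522 and 431 in NC (TZG against NC, log2 fold change -1.41 ± 0.24 SE, edgeR adjusted p = 0.016). Rhbdf2, which carries ADAM17 to the cell surface, rose to 43.7 ± 7.28 CPM in TZG, against 23.6 ± 5.03 in NC (0.88 ± 0.19, adjusted p = 0.025). Litaf rose to 169 ± 27.7 CPM in TZG, against 81.6 ± 11.8 in NC (1.05 ± 0.17, adjusted p = 0.014). Adam17 itself was at 137 ± 5.37 CPM in TZG and 153 ± 37.7 in NC (adjusted p = 0.54).

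The other comparisons moved other genes of these lists to the front, with none past the threshold in edgeR. In TZG against AIA the inflammatory cyclooxygenase Ptgs2 averaged 8.17 ± 5.81 CPM in the TZG libraries, against 1.61 ± 0.525 in those of AIA (SD, n = 3 each; log2 fold change 2.34 ± 0.54 SE, edgeR adjusted p = 0.26). Traf3 had 0.52 ± 0.13, the ligand 4-1BBL (Tnfsf9) 1.74 ± 0.58 and Litaf 0.6 ± 0.17, while Tnfsf10 had -0.99 ± 0.24, Timp3 -0.78 ± 0.24, the TAK1 adaptor Tab3 -0.82 ± 0.29, Tnfrsf14 -0.74 ± 0.63 and the transcription factor Irf1 -0.39 ± 0.22, with adjusted p from 0.26 to 0.64. With AIA set against NC, the survival gene Bcl2a1 averaged 12.5 ± 8.01 CPM in the AIA libraries, against 3.69 ± 0.802 in those of NC (log2 fold change 1.75 ± 0.42 SE, edgeR adjusted p = 0.12). Tnfrsf14 had 5.19 ± 0.84, Tnfsf14 3.43 ± 1.12, the necroptosis sensor Zbp1 1.36 ± 0.51 and Rhbdf2 0.57 ± 0.19. In NC Tnfrsf14 and Tnfsf14 averaged 0.194 and 0.135 CPM, near or below the level of 3 reads, so these sizes rest on few reads. Timp3 had -0.63 ± 0.24, Cd83 -0.43 ± 0.34, Traf5 -0.36 ± 0.16, Tnfrsf21 -0.36 ± 0.16 and Tnfsf12 -0.35 ± 0.11. The edgeR adjusted p of the genes listed after Bcl2a1 ran from 0.078 to 0.61. The lowest p among genes with negative values that did not pass in TZG against NC belonged to Traf5 (-0.5 ± 0.16, adjusted p = 0.077), Fas (-0.18 ± 0.12, 0.37) and Tnfaip2 (-0.16 ± 0.31, 0.77) in their lists.

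**Figure D5:**
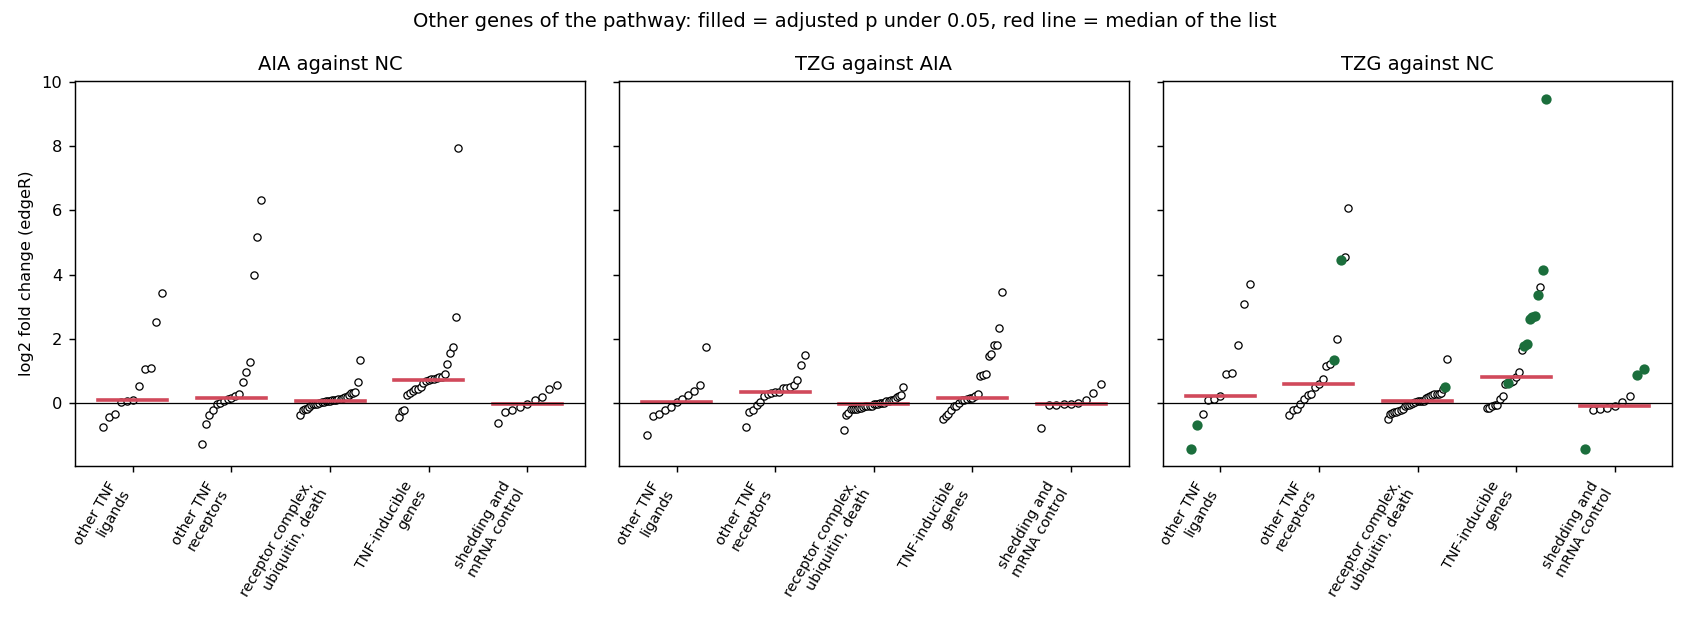
Log2 fold changes from edgeR of the tested genes of 5 pathway lists in each comparison, with a point per gene, filled points for an adjusted p under 0.05 and a red line at the list median. In TZG against NC 17 points are filled, 9 of them in the list of TNF-inducible genes, and in the other comparisons 0.

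The genes whose profile over the 9 libraries was most like that of a member were taken by the root mean square difference of mean-centred log2 CPM. Genes without a regular symbol, and genes whose group means ranged much less than the member's, were left out beforehand. Nearest to Ltb were Hcst, a signalling adaptor of NK and T cells, at 0.27, Stap1, an adaptor in B cells, at 0.32, and Tbc1d10c, a lymphocyte regulator, at 0.33, where Ltb itself varied by 1.2 around its mean. Nearest to Birc3 was Il2rg, the shared receptor chain of several interleukins, at 0.1, where Birc3 varied by 0.51, followed by Neurl3 and Dctd at 0.2 and 0.21. For Tnf, with its 4 to 24 reads a library, they were the cholesterol exporter Abcg1, the phosphatase Ptpn1 and Apod, at 0.23 to 0.26 against 0.57. For Traf1 they were the kinase Tlk1, Gm22953 and the autophagy gene Atg14, at 0.17 to 0.18 against 0.35.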

How the data were processed

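RNA of synovium from 9 libraries was measured by the authors with a SMARTER mRNA-Seq kit, per the labels' protocols. They deposited whole-number read counts per gene and FPKM values, per the file headers, along with p-values, q-values and log2 fold changes of their comparisons. fastp, HISAT2, StringTie 1.3.3b and edgeR 3.30.3 are named without roles, per the submitters' processing notes; the build is not given in the sources used here. Of the deposited tables, which hold the same bytes, 1 was read. The 4 FPKM columns of libraries placed by letter were not used, and FPKM was worked out for every library with gene lengths that the 5 other FPKM columns imply.

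Counts of 15068 of 32883 genes kept by filterByExpr, all 10 members among them, were tested with edgeR 4.0.16 (R 4.3.3, TMM factors, robust quasi-likelihood, all 9 libraries in one fit, Benjamini-Hochberg over all genes, threshold 0.05), after a test on simulated counts. The SE of a log2 fold change is its size over the root of the F statistic. Every library pair differed beyond sampling noise (chi-square of 21.4 or more per gene). Limits of 3 reads cover counting error only. Alternatives were DESeq2 1.42.0, voom of limma 3.58.1, other scaling factors (upper quartile, RLE), other filters and fits, and left-out libraries.

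The members and lists were chosen with earlier results of these data known. The form of the NF-kB motif was chosen after a looser one had been searched, which matched Ltb and Traf1. Named from each list were the gene with the smallest p in each direction and comparison; other examples were chosen after their values were seen.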

Additional observations from a re-analysis of the deposited data

How the results depend on the processing

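Of 625 recomputed log2 fold changes of the 10 genes, over 21 alternatives, of which 1, the legacy method, is identical to the values reported, 599 kept their direction and side of the threshold, 14 lost a call, 3 gained one, all in DESeq2 for AIA against NC, and 9 turned sign. None of the 9 was in TZG against NC. They were, in TZG against AIA, Ltb at -0.47 without G48, -0.02 without M2, -0.22 without C61, M8 and G48 and -0.046 in the 5 libraries matched by number, Traf2 at -0.098 and Birc3 at -0.31 in those 5 libraries, Tnf at 0.17 without M6 and Ripk1 at -0.0015 without M8, and in AIA against NC Ltbr at -0.042 without C59. With 1 library left out these ran in TZG against AIA from -0.47 to 0.55 for Ltb, -0.48 to 0.17 for Tnf and -0.0015 to 0.038 for Ripk1, and in AIA against NC from -0.042 to 0.083 for Ltbr.

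Counts over all genes moved with the tool. In AIA against NC edgeR called 2, DESeq2 940, limma-voom 1, no filter 4, a fit of the 2 groups 1, the 5 libraries matched by number 0 and the fit without C61, M8 and G48 180, and 0 to 98 were called with 1 library left out. In TZG against AIA edgeR called 0, DESeq2 304 and the fit without C61, M8 and G48 1, and 0 with any 1 library left out. In TZG against NC edgeR called 1555, DESeq2 2951, a fit of the 2 groups 763 and the 5 matched libraries 0, and 335 to 1314 with 1 library left out. Of the 10 genes DESeq2 called 3 in AIA against NC, and in TZG against NC 2 to 4 were called with 1 library left out and 0 in the 5 matched libraries. Of the other pathway genes DESeq2 called 10, 8 and 29 in AIA against NC, TZG against AIA and TZG against NC. In the last, limma-voom called 11 and the 5 matched libraries 0, with 6 to 19 with 1 library left out, and in AIA against NC the fit without C61, M8 and G48 called 2 and single omissions 0 to 1. The cause was not tested. The log2 ratio of Tnfrsf1b to Tnfrsf1a differed by 0.51 to 0.85 in AIA against NC, 0.1 to 0.33 in TZG against AIA and 0.74 to 1.07 in TZG against NC with 1 library left out. The newer quasi-likelihood method, chosen after seeing the data, called 18 pathway genes in TZG against NC; the legacy method proved to be the default. Tnf had too few reads for the stricter filter and for the fits of AIA or TZG with NC alone. DESeq2 gave Tnf no adjusted p in TZG against AIA, and that value is counted among the 599. No paired analysis was possible because the labels give no replicate numbers shared between groups. Depth limits Tnf and Ltb most, at 4 to 24 and 7 to 143 reads a library.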
